A study of Mus musculus with 16 samples.

Results

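The genes of PPAR-alpha signalling, fatty acid oxidation and ketogenesis were followed in whole-liver RNA, as a module of 39 genes chosen by name from the 25719 genes of the deposited table. The module holds 15 genes of mitochondrial oxidation, 8 genes of peroxisomal oxidation and the peroxisomal membrane, and 16 other genes (regulators, acyl-CoA synthetases, thioesterases, enzymes found in both organelles and further PPAR-alpha targets). The mice were wild type (WT, strain label C57BL6J, 4 on a normal chow diet, numbered 1, 2, 3 and 5, and 5 on SSD) or Klrk1-/- (labelled Klrk1 KO, strain label NKG2D, 4 on chow and 3 on SSD). NCD is the normal chow, and SSD is the study's diet for inducing steatosis and steatohepatitis, rich in animal fat, fructose and cholesterol and fed for 3 weeks. The study used male mice aged 8 to 12 weeks at the start of feeding. Klrk1 encodes NKG2D, an activating receptor of NK and T cells, and the knockout is not a conditional one. The WT mice are not described as littermates of the Klrk1-/- mice, so genotype and colony cannot be told apart.

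PPAR-alpha, encoded by Ppara, is a nuclear receptor that binds fatty acids, pairs with RXR on DNA and drives the genes that burn fat in the fasted liver. Long-chain fatty acids are activated to acyl-CoA by the Acsl enzymes and enter mitochondria as carnitine esters through Cpt1 and Cpt2. There each round of beta-oxidation passes an acyl-CoA dehydrogenase, a hydratase, a hydroxyacyl-CoA dehydrogenase and a thiolase, and the acetyl-CoA formed can leave the liver as ketone bodies. Peroxisomes shorten very long and branched chains with enzymes of their own, and in rodents they multiply when PPAR-alpha is activated.

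Each mouse gave 1 library, with 19892025 to 28936707 reads on genes. Klrk1 itself lay between 20.1 and 71.1 normalized counts in WT mice and between 0.966 and 8.71 in Klrk1-/- mice. Mice of the same group were compared on their recovered reads, with a chi-square per gene of 14.2 to 100.8, all above sampling noise, and the 4 highest values all involved WT mouse 1 on SSD. This mouse had the highest summed level of the 6 stellate cell markers (25531, against at most 8361 in Klrk1-/- mice on SSD) and of the 7 macrophage and Kupffer cell markers (10982). It is therefore left out in an alternative beside the results it touches. The hepatocyte markers, Alb (albumin) among them, summed to between 1457929 and 2986044 normalized counts in every mouse. Of the 5 adipocyte markers, Adipoq, Plin1, Lep and Retn stayed under 10 in every mouse, as did the muscle markers Ckm, Acta1 and Tnnt3. The fifth, Cfd, gave 1255 and 1133 normalized counts in WT mice 2 and 3 on SSD, 77.3 and 91.4 in mice 4 and 5, and at most 32.9 in every other mouse. The deposited values are counts divided by 1 factor per mouse, and these factors left lower totals on SSD. Scaling every mouse to the same total instead shifted all genes, to a median log2 fold change of 0.34 for SSD against NCD in WT mice, 0.25 in Klrk1-/- mice and -0.11 for Klrk1-/- against WT on SSD. That scaling turned 2265 higher and 2303 lower genes of the WT diet comparison into 6315 and 720, 1723 and 2067 of the Klrk1-/- diet comparison into 4828 and 806, and 160 and 221 of the genotype comparison on SSD into 88 and 376. The interaction counts went from 42 and 73 to 21 and 87.

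The first question was how the module responds to SSD feeding in WT liver. Most of it rose. Of the 39 genes, 23 were higher and 2 were lower on SSD at an adjusted p under 0.05, where 17.3% of all genes tested were higher and 17.6% were lower. The median log2 fold change of the module was 0.60, against -0.0015 for all genes. The test was limma on log2(normalized count + 1) with Benjamini-Hochberg adjustment over all genes tested, and on it the folds of low genes come out too small. In Klrk1-/- mice 31 genes were higher and 1 was lower, where 13.4% of all genes were higher and 16% lower, and the median was 0.67. The same 22 genes rose in both genotypes, and Acsl5 fell in both. Without WT mouse 1 on SSD, 28 genes passed in WT mice, since Eci1, Hadh and Hsd17b4 joined the rest. Of all genes 16.9% were then higher and 17.4% lower. With every mouse scaled to the same total, 34 genes were higher and 1 was lower in WT mice, where 48.2% and 5.5% of all genes were, and 36 and 1 in Klrk1-/- mice, where 37.4% and 6.25% were. With quantile normalization 32 genes passed in WT mice, where 15.5% of all genes were higher and 15.9% lower. In Klrk1-/- mice 35 passed, where 14.6% were higher and 14.0% lower. On SSD the summed hepatocyte markers of WT mice lay between 1457929 and 1905958, below 2303022 to 2618747 on NCD, with 3 of 7 lower, and 4 of 7 macrophage, 3 of 6 stellate cell and 4 of 5 endothelial markers were higher. The endothelial markers summed to 3152 to 3913 normalized counts on SSD and 2000 to 3369 on NCD, and Cfd, the only adipocyte marker tested, was higher. In Klrk1-/- mice 4 of 7 hepatocyte markers were lower, and 1 of 7 macrophage, 4 of 6 stellate cell, 1 of 5 endothelial and 1 of 4 bile duct markers were higher. The part of these markers in the results was not tested. In whole-liver RNA, fewer cells of a type and less RNA per cell cannot be told apart.

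**Figure D1:**
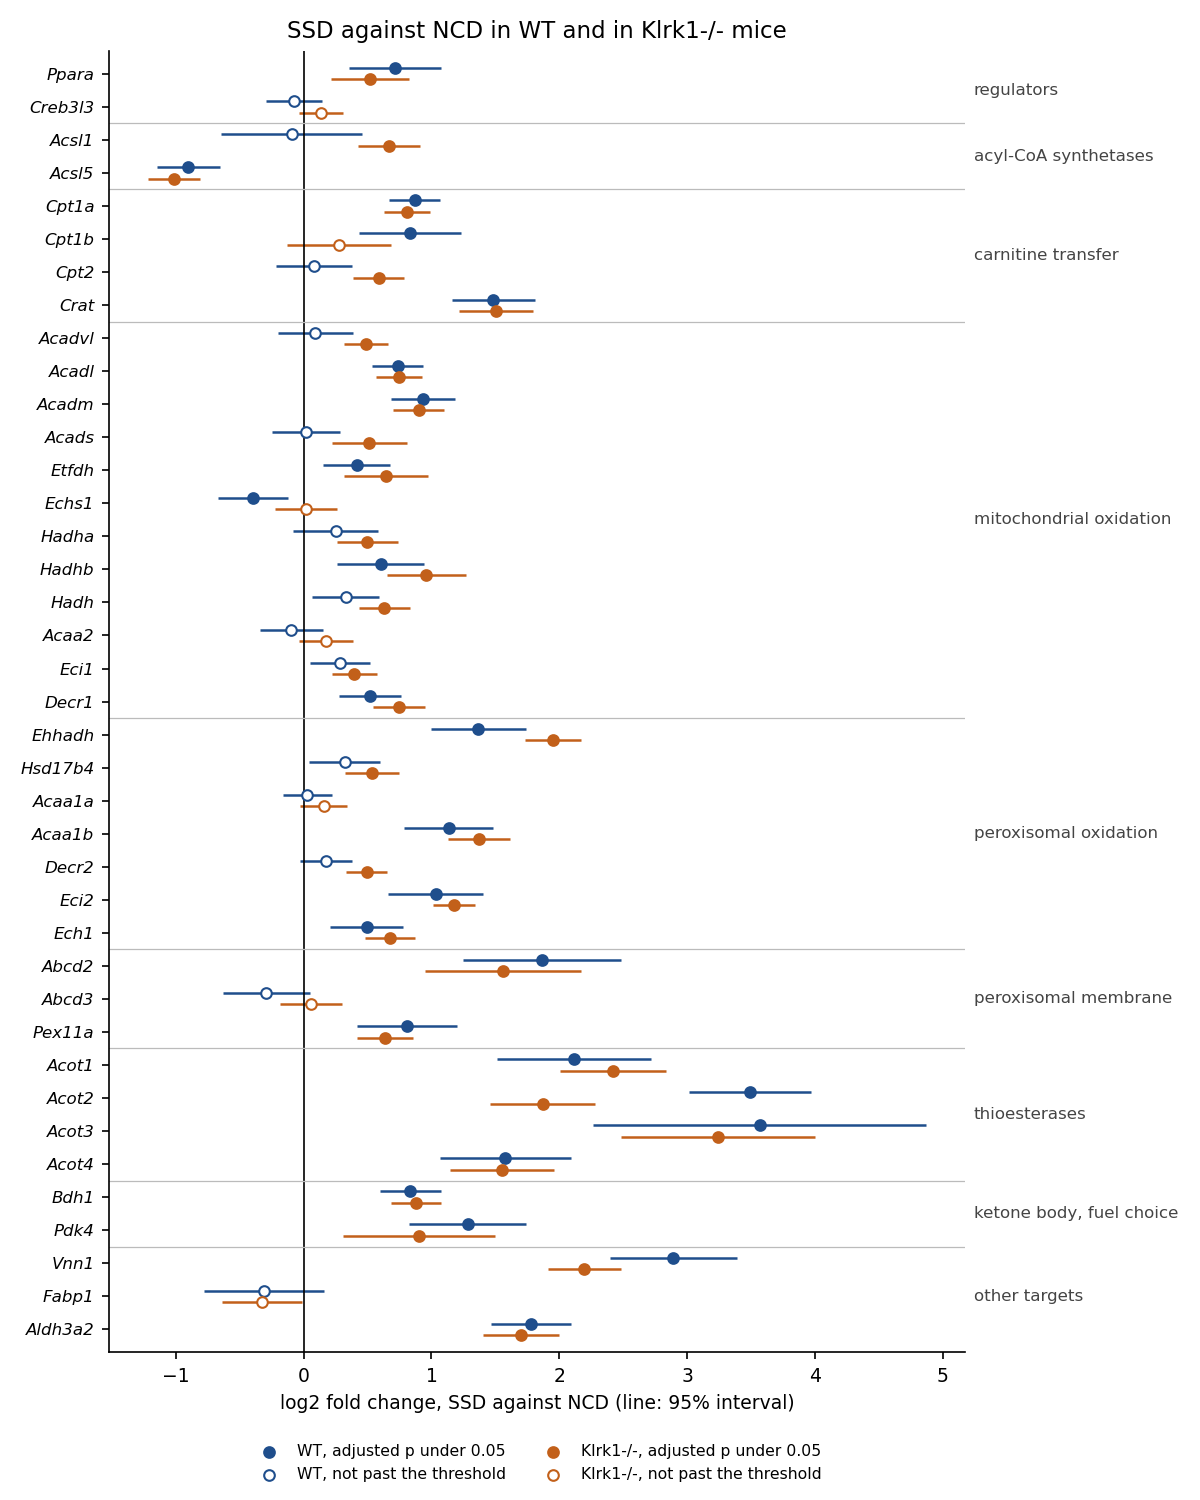
Log2 fold change of each gene of the module for SSD against NCD (x axis), with its 95% interval, in WT mice (blue) and Klrk1-/- mice (orange). Filled circles passed an adjusted p under 0.05. Genes are ordered by role, and 23 circles of WT mice and 31 of Klrk1-/- mice are filled on the right of 0, with the thioesterases Acot2 and Acot3 and the pantetheinase gene Vnn1 farthest out in WT mice.

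Ppara itself rose on SSD in both genotypes. Ppara (chromosome 15, 85619184 to 85687020 on GRCm39) gave 403, 558, 300 and 312 normalized counts in WT mice on NCD and 561, 613, 699, 569 and 694 on SSD, in the order of the mouse numbers. Klrk1-/- mice gave 546, 493, 529 and 390 on NCD and 608, 658 and 847 on SSD. In both genotypes every mouse on SSD lay above every mouse on NCD, though WT mouse 2 on NCD and WT mouse 1 on SSD nearly met. The log2 fold change was 0.71 ± 0.17 (SE, limma adjusted p = 0.0066) in WT mice and 0.52 ± 0.14 (adjusted p = 0.016) in Klrk1-/- mice, and the latter passed no longer without Klrk1-/- mouse 3 on SSD (adjusted p = 0.079). Of the Ppara exons, 1803 of 6587 bases also lie in Cdpf1 on the opposite strand, and the strand setting of the counting is not stated. The same holds for 2217 of 5946 exonic bases of Acsl5 (in Zdhhc6) and 1504 of 3937 of Acadvl (in Dvl2). Creb3l3 encodes a liver transcription factor of the ER membrane that is cleaved on fasting and acts with PPAR-alpha. Creb3l3 (chromosome 10, 80920158 to 80934708) gave 6386, 6346, 5475 and 5842 normalized counts in WT mice on NCD and 4801, 5705, 5742, 5747 and 6650 on SSD. Values in Klrk1-/- mice were 5726, 5517, 5095 and 5776 on NCD and 5932, 5888 and 6380 on SSD. The WT groups overlapped, and the log2 fold changes of -0.07 ± 0.10 (adjusted p = 0.60, turning to 0.27 when every mouse was scaled to the same total) and 0.13 ± 0.08 (adjusted p = 0.22) did not pass. With equal totals both did (adjusted p = 0.023 in WT and 0.0048 in Klrk1-/- mice).

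The acyl-CoA synthetases, which activate fatty acids, went different ways. Acsl5, an isoenzyme of the mitochondrial outer membrane and ER, fell in both genotypes, from 9153 ± 1251 normalized counts (SD, n = 4) to 4882 ± 495 (n = 5) in WT mice and from 9246 ± 515 (n = 4) to 4595 ± 552 (n = 3) in Klrk1-/- mice. The log2 fold changes were -0.90 and -1.01, and the diet groups did not overlap. Acsl1, the main isoenzyme of liver, rose in Klrk1-/- mice, from 15030 ± 1961 to 23775 ± 2165 (log2 fold change 0.67 ± 0.11, limma adjusted p = 0.0011), a call that was lost in the model of all 4 groups. In WT mice Acsl1 had a log2 fold change of -0.10 ± 0.25 (adjusted p = 0.80), which turned to 0.25 when every mouse was scaled to the same total. WT mouse 1 on SSD gave 9054 for Acsl1 and the other 4 gave 17559 to 24817.

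Transcripts of the carnitine shuttle rose for Cpt1a and Crat in both genotypes, for Cpt1b in WT mice and for Cpt2 in Klrk1-/- mice. Cpt1a, the liver form of the rate-limiting carnitine palmitoyltransferase (chromosome 19, 3372334 to 3435733), gave 3447, 3818, 3458 and 3345 normalized counts in WT mice on NCD and 7498, 5910, 6353, 5906 and 6500 on SSD. Klrk1-/- mice held a like range, with 3267 to 3574 on NCD and 5488 to 6455 on SSD. The values within each group lay close together and the diet groups were far apart. The log2 fold change was 0.87 ± 0.09 (limma adjusted p = 3.4e-05) in WT and 0.81 ± 0.08 (adjusted p = 2.8e-05) in Klrk1-/- mice. Crat, carnitine acetyltransferase of mitochondria and peroxisomes (chromosome 2, 30290483 to 30305825), gave 853, 1042, 802 and 825 in WT mice on NCD and 1796, 3236, 2733, 2382 and 2343 on SSD. No mouse on NCD reached the lowest mouse on SSD, and the log2 fold change of Crat was 1.48 ± 0.15 in WT mice (adjusted p = 2.4e-05) and 1.51 ± 0.13 in Klrk1-/- mice (adjusted p = 1e-05). Cpt1b, the muscle form, was low in liver. It rose in WT mice from 166 ± 29.9 to 299 ± 69 (log2 fold change 0.83, adjusted p = 0.0047), and Klrk1-/- mice stood at 245 ± 65.6 on NCD and 289 ± 17 on SSD (0.28, adjusted p = 0.28, or 0.53 with adjusted p = 0.038 with equal totals). Of the 4008 exonic bases of Cpt1b, 2744 also belong to the gene model Gm44502 on the same strand, so its reads can be split between them. Cpt2 of the inner membrane rose in Klrk1-/- mice (0.59 ± 0.09), and its WT value was 0.08 ± 0.14. Per base of the deposited feature length, Cpt1a stood 17.3-fold above Cpt1b in WT mice on NCD and 17.7-fold on SSD, with overlapping ranges, and 11.9-fold and 16.6-fold in Klrk1-/- mice.

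Within Klrk1-/- mice the mitochondrial beta-oxidation genes were mostly higher on SSD than on NCD. In WT mice about as many did not pass as passed in the values as deposited, and most passed under other scalings. Of the 15 mitochondrial genes, the Cpt genes included, 7 were higher and 1 was lower in WT mice (median log2 fold change 0.33), where 17.3% and 17.6% of all genes were, and 12 were higher in Klrk1-/- mice, with a median of 0.59, where 13.4% of all genes were. With equal totals 14 of the 15, all but Echs1, were higher in each genotype. Of all genes 48.2% in WT and 37.4% in Klrk1-/- mice were higher then. Quantile normalization gave 12 higher in WT and 13 in Klrk1-/- mice and 0 lower, where 15.5% and 14.6% of all genes were higher. None of the 15 passed the interaction test (limma). At an unadjusted p under 0.05 there were 4, with no share of all genes computed at that cut-off. Among the acyl-CoA dehydrogenases, Acadm for medium chains (chromosome 3, 153627994 to 153650269) gave 4901, 4341, 3526 and 3699 normalized counts in WT mice on NCD and 7578, 9285, 7931, 7092 and 7329 on SSD. The lowest mouse on SSD was above the highest on NCD, with a log2 fold change of 0.94 ± 0.12 (limma adjusted p = 1.1e-04) in WT mice and 0.90 ± 0.09 in Klrk1-/- mice. Acadl for long chains rose alike (0.73 and 0.74). Acadvl for very long chains and Acads for short chains passed in Klrk1-/- mice, with 0.49 and 0.51, and stood at 0.09 and 0.02 in WT mice, where both passed with equal totals. Acads no longer passed in Klrk1-/- mice without mouse 1 or mouse 3 on SSD. The difference between the genotypes did not pass for either (interaction 0.39 and 0.50, adjusted p = 0.25 and 0.22). Etfdh, which hands the electrons of the dehydrogenases to the respiratory chain, rose by 0.41 and 0.65, with overlapping groups in WT mice, where its call was lost without mouse 3 or mouse 5 on NCD.

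The later steps of the mitochondrial cycle were uneven. Hadhb, the thiolase subunit of the trifunctional protein, rose in both genotypes (log2 fold changes 0.60 and 0.96). Its partner subunit Hadha rose in Klrk1-/- mice (0.50), with 0.25 in WT mice (limma adjusted p = 0.22). These genes lie head to head on chromosome 5, with 85 bases between them by the deposited coordinates. In the newer annotation GENCODE M39 they share 932 exonic bases on opposite strands, and Hadha shares a further 2033 of its 9550 with Garem2, so reads there could be counted for either. Hadh, the hydroxyacyl-CoA dehydrogenase for shorter chains, was 0.33 in WT mice (adjusted p = 0.051) and rose by 0.63 in Klrk1-/- mice. Echs1, the short-chain hydratase, fell in WT mice from 4761 ± 926 to 3580 ± 319 (-0.40, adjusted p = 0.03), with overlapping groups, and stood at 3311 ± 374 and 3352 ± 413 in Klrk1-/- mice. Its WT call was lost with equal totals (-0.05, limma adjusted p = 0.74), with quantile normalization (-0.16, adjusted p = 0.26) and with the mouse numbers as a replicate block. It was also lost without WT mouse 1 or 2 on NCD or mouse 4 on SSD. Acaa2, the mitochondrial thiolase, passed in neither genotype as deposited (-0.10 in WT and 0.17 in Klrk1-/- mice) and in both with equal totals (0.25 and 0.43, limma adjusted p = 0.038 and 0.0051) and with quantile normalization. Of the helper enzymes for unsaturated chains, Decr1 rose in both genotypes (0.52 and 0.75) and Eci1 in Klrk1-/- mice (0.40, against 0.28 with adjusted p = 0.059 in WT mice). WT mice 1 and 2 on NCD held more Hadha (6331 and 7042) and Hadhb (1581 and 1595) than mice 3 and 5 (4798 and 4229, 1040 and 941).

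Of the peroxisomal genes, Ehhadh, Acaa1b and Abcd2 rose more than any of the 15 mitochondrial genes, and the other 5 did not. Of the 8, 4 were higher in WT mice (median log2 fold change 0.56), where 17.3% of all genes were, and 6 in Klrk1-/- mice (0.59), where 13.4% were, and none was lower. With equal totals 7 and all 8 were higher, beside the 48.2% and 37.4% of all genes above. Quantile normalization gave 7 higher in each genotype, where 15.5% and 14.6% of all genes were. Ehhadh, the bifunctional peroxisomal hydratase and dehydrogenase (chromosome 16, 21580037 to 21606557), gave 5841, 4894, 4252 and 3158 normalized counts in WT mice on NCD and 9185, 14002, 10337, 11315 and 12889 on SSD. The Klrk1-/- mice held 3993, 3397, 3410 and 3963 on NCD and 14979, 12521 and 15388 on SSD. The diet groups lay well apart in both genotypes, and the log2 fold change was 1.37 ± 0.17 (limma adjusted p = 1.3e-04) in WT and 1.95 ± 0.10 (adjusted p = 1.3e-07) in Klrk1-/- mice. Hsd17b4, the other bifunctional enzyme, changed less (0.32, adjusted p = 0.068, and 0.54, adjusted p = 0.0018).

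The 2 peroxisomal thiolase genes responded differently. Acaa1b (chromosome 9, 118977091 to 118986161) gave 17658, 19042, 14925 and 15816 normalized counts in WT mice on NCD and 27238, 49375, 40676, 36295 and 34274 on SSD. Klrk1-/- mice gave 16389, 17749, 21625 and 19421 on NCD and 44968, 52564 and 48038 on SSD. WT mouse 1 was the lowest on SSD, and it still lay above every mouse on NCD. The log2 fold change was 1.13 ± 0.16 (limma adjusted p = 2.8e-04) in WT and 1.37 ± 0.11 (adjusted p = 4.9e-06) in Klrk1-/- mice. Its neighbour Acaa1a (chromosome 9, 119168742 to 119179365) stayed between 2980 and 4208 in all 16 mice (0.03 and 0.16, neither past the test, while equal totals gave 0.37 and 0.42 with adjusted p of 0.0042 and 0.0031, and quantile normalization also passed both). The ratio of Acaa1b to Acaa1a per base of feature length, in which the scaling factor of a mouse cancels, went from 5.23 ± 0.62 (n = 4) to 11.4 ± 2.06 (n = 5) in WT mice and from 5.68 ± 0.61 (n = 4) to 13.1 ± 0.37 (n = 3) in Klrk1-/- mice, with no overlap between diets. The sequences of these genes are alike, and reads that fit both can be split between them.

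Of the enzymes for unsaturated chains, Eci2, an enoyl-CoA isomerase of both organelles (chromosome 13, 35161731 to 35211079), gave 2857, 2607, 2262 and 2438 normalized counts in WT mice on NCD and 3197, 6123, 5607, 5564 and 6081 on SSD. Values in Klrk1-/- mice were 2473, 2358, 2459 and 2624 on NCD and 5535, 5476 and 5790 on SSD. WT mouse 1 on SSD stood far below the other 4 and just above the NCD group. The log2 fold change was 1.03 ± 0.17 (limma adjusted p = 9.2e-04) in WT and 1.18 ± 0.07 (adjusted p = 5.9e-07) in Klrk1-/- mice. Ech1, a dienoyl-CoA isomerase, rose by 0.49 and 0.68, with overlapping groups in WT mice. Decr2, the peroxisomal dienoyl-CoA reductase, rose in Klrk1-/- mice (0.49) and was 0.17 in WT mice (adjusted p = 0.16). In the membrane, Abcd2, a transporter of very long acyl-CoA, rose from 109 ± 47.6 to 389 ± 136 in WT mice and from 97.3 ± 47.9 to 270 ± 49 in Klrk1-/- mice (1.86 and 1.56). Its relative Abcd3, at 4788 normalized counts per kilobase against 51.1 for Abcd2 in WT mice on NCD, passed in neither as deposited (-0.29 and 0.06), and with equal totals in Klrk1-/- mice (0.32, adjusted p = 0.038) but not in WT mice (0.05). Pex11a, which promotes peroxisome division, rose by 0.81 and 0.64.

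The contrast between the organelles was followed per mouse, as the mean log2 level of the 8 peroxisomal genes minus that of the 15 mitochondrial genes. This difference was -0.05 ± 0.08 (SD, n = 4) in WT mice on NCD and 0.26 ± 0.10 (n = 5) on SSD. In Klrk1-/- mice it was -0.04 ± 0.13 (n = 4) and 0.25 ± 0.05 (n = 3). The mice on NCD lay between -0.14 and 0.15 and those on SSD between 0.17 and 0.42, so the diets did not overlap. The rise was 0.31 in WT and 0.29 in Klrk1-/- mice, 0.33 in WT mice without mouse 1 on SSD, and the choice of scaling has little bearing on it, because the factor of a mouse cancels. With Ech1, Eci2, Crat, Acot3 and Acot4 counted as peroxisomal and Acot2 as mitochondrial the rise was 0.48 and 0.51, and WT mouse 1 on SSD (-0.44) then fell within the range of WT mice on NCD. The difference rests on means, and it was carried by few genes. As deposited, the class medians of the log2 fold change were 0.33 and 0.56 in WT mice and 0.59 and 0.59 in Klrk1-/- mice. In WT mice both were higher with equal totals and with quantile normalization, as given under the processing. In Klrk1-/- mice Ehhadh, Abcd2 and Acaa1b rose by 1.95, 1.56 and 1.37 and the other 5 peroxisomal genes stood at 0.06 to 0.64. No test was made, since the genes were chosen with results known. The mean level of the mitochondrial genes rose as well, from 11.74 ± 0.19 to 12.11 ± 0.09 on the log2 scale in WT mice and from 11.59 ± 0.08 to 12.15 ± 0.13 in Klrk1-/- mice. In the Gene Ontology terms of the deposited table, all 15 mitochondrial genes carry a mitochondrion term and none a peroxisome term, and all 8 peroxisomal genes carry a peroxisome term, 5 of them a mitochondrion term too.

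**Figure D2:**
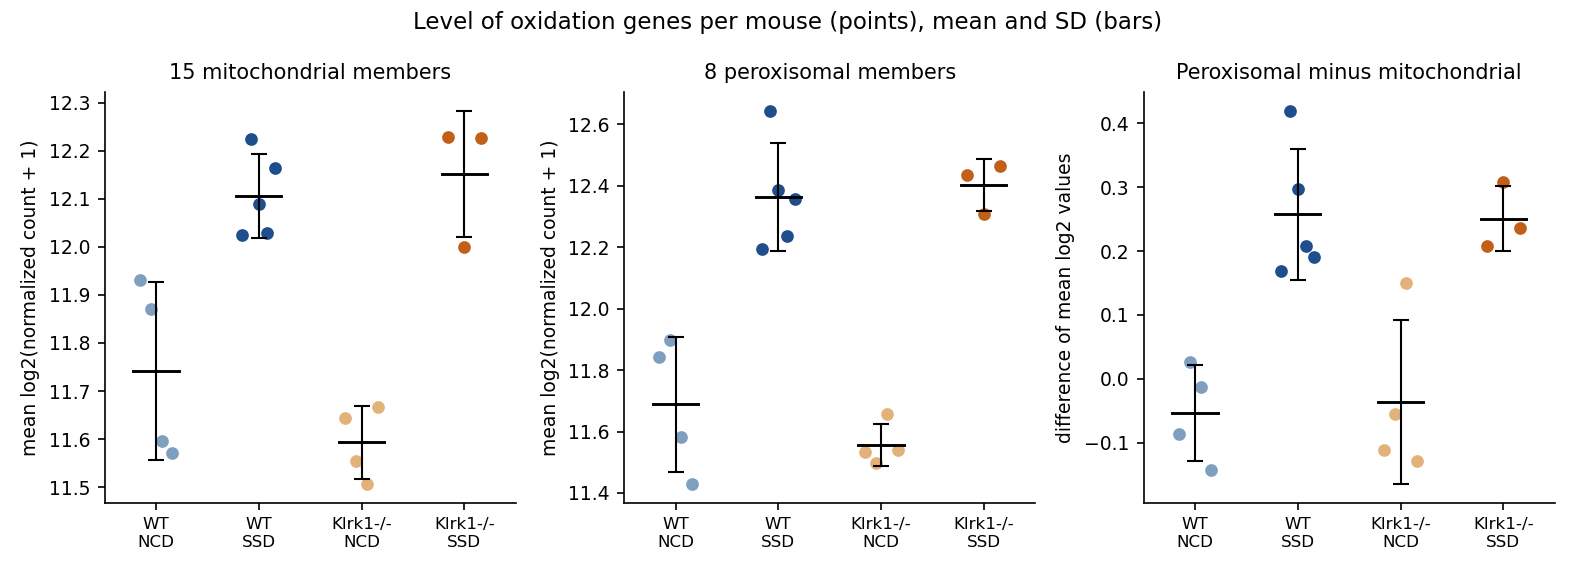
Mean log2(normalized count + 1) of the 15 mitochondrial genes (left) and the 8 peroxisomal genes (middle), and the difference between these means (right), in each mouse (points), with the mean and SD of each group (bars). The y axes do not start at 0. In the right panel the mice on SSD sit between 0.17 and 0.42, above the mice on NCD at -0.14 to 0.15.

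The acyl-CoA thioesterases of the Acot cluster, which release free fatty acids from CoA, had the highest median rise of the roles with more than 1 gene. All 4 were higher in both genotypes (median log2 fold changes 2.81 and 2.15), and they span 72542 bases of chromosome 12. Acot2, the mitochondrial form (84034635 to 84040647), gave 36.2, 47.3, 23.5 and 33.1 normalized counts in WT mice on NCD and 542, 431, 272, 425 and 346 on SSD. The Klrk1-/- mice held 64.3, 57.2, 103 and 65.2 on NCD and 283, 259 and 241 on SSD. Klrk1-/- mice began higher and ended near the lower edge of the WT range. The log2 fold change was 3.49 ± 0.22 (limma adjusted p = 5.6e-07) in WT and 1.87 ± 0.19 (adjusted p = 2.5e-05) in Klrk1-/- mice. Acot1, the cytosolic form (84056264 to 84065145), gave 224, 253, 138 and 131 in WT mice on NCD and 400, 865, 829, 1028 and 985 on SSD. Klrk1-/- mice gave 199, 122, 172 and 240 on NCD and 957, 842 and 1085 on SSD, and in both genotypes the diets were apart (2.12 ± 0.28 and 2.42 ± 0.19, adjusted p = 1.7e-04 and 3.8e-06). The peroxisomal Acot3 went from 19.4 ± 14.6 to 236 ± 143 in WT mice, where mouse 1 on SSD gave 53.8, and from 20.7 ± 8.32 to 203 ± 86.6 in Klrk1-/- mice (3.57 and 3.24). Acot4, the peroxisomal form for succinyl-CoA and dicarboxylic chains, rose by 1.58 and 1.55. These genes are near copies and could share reads, and Acot3 and Acot4 share 809 and 457 exonic bases with the gene model Gm49366.

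The ketone body gene Bdh1 and the fuel choice gene Pdk4 passed as higher in both genotypes, Pdk4 in Klrk1-/- mice under part of the settings. Bdh1, which interconverts the ketone bodies acetoacetate and beta-hydroxybutyrate, went from 4132 ± 578 to 7353 ± 728 in WT mice and from 4351 ± 360 to 8017 ± 611 in Klrk1-/- mice (log2 fold changes 0.84 and 0.88). Pdk4, the kinase that shuts off pyruvate dehydrogenase when fat is burned, went from 260 ± 71.8 to 624 ± 140 in WT mice (1.28) and from 232 ± 101 to 411 ± 85.8 in Klrk1-/- mice (0.90, limma adjusted p = 0.027). The Klrk1-/- diet groups of Pdk4 overlapped, and its call there was lost with DESeq2 and without mouse 2 or 4 on NCD or mouse 1 or 3 on SSD. The interaction of Pdk4 did not pass (-0.38, adjusted p = 0.64).

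The remaining targets split. Vnn1, a pantetheinase that recycles vitamin B5 from CoA breakdown (chromosome 10, 23770586 to 23781241), gave 371, 286, 192 and 179 normalized counts in WT mice on NCD and 1287, 2627, 1941, 1750 and 1792 on SSD. Values in Klrk1-/- mice were 314, 260, 291 and 258 on NCD and 1239, 1074 and 1595 on SSD. Every mouse on SSD lay far above every mouse on NCD in each genotype, and the log2 fold change was 2.89 ± 0.23 (limma adjusted p = 3.5e-06) in WT and 2.20 ± 0.13 (adjusted p = 4.4e-07) in Klrk1-/- mice. Aldh3a2, a dehydrogenase of long-chain fatty aldehydes (chromosome 11, 61114243 to 61158290), gave 5212, 4656, 3414 and 3393 in WT mice on NCD and 12827, 17045, 14418, 12625 and 13761 on SSD. The Klrk1-/- mice held 3944, 3025, 3536 and 4547 on NCD and 13981, 10603 and 11934 on SSD, again with no overlap (1.78 ± 0.14 and 1.70 ± 0.13, adjusted p = 4.1e-06 in each). Fabp1, the abundant liver fatty acid binding protein, passed in neither genotype (-0.31 ± 0.22, or 0.04 with equal totals, and -0.33 ± 0.14), with overlapping groups, though DESeq2 and the fit without Klrk1-/- mouse 2 on SSD called it lower in Klrk1-/- mice. Per kilobase of feature length, Fabp1 stood at 177388 normalized counts in WT mice on NCD, followed by Acaa2 at 19943 and Acaa1b at 14868. The lowest were Acot3 at 8.5, Acot2 at 15.9 and Abcd2 at 51.1.

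**Figure D3:**
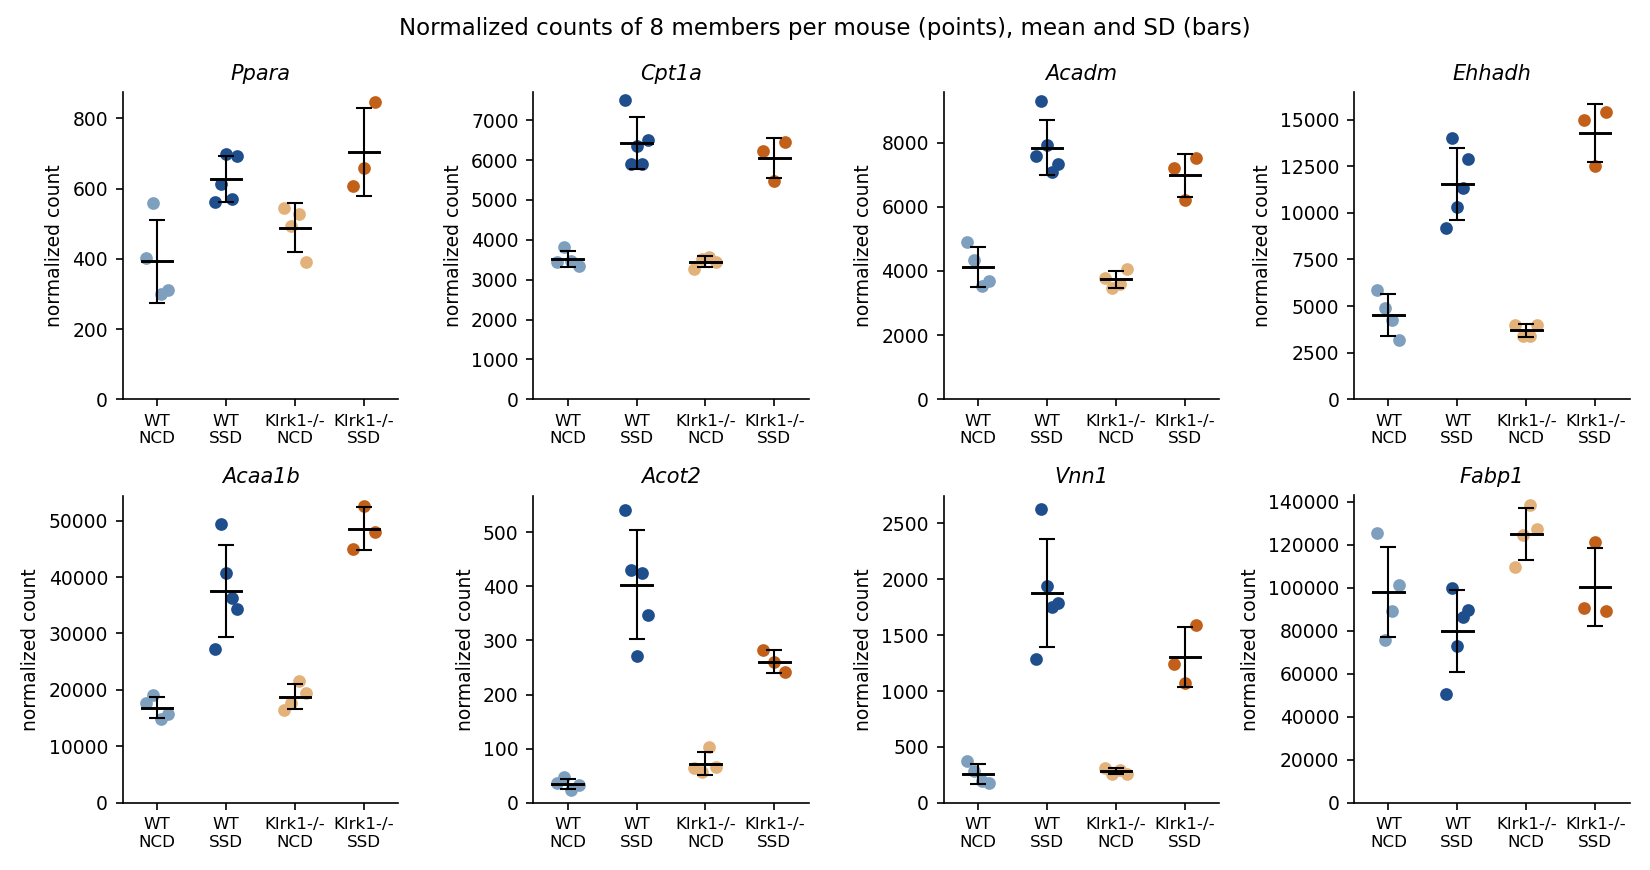
Normalized counts (y axis, from 0) of 8 genes of the module in each mouse (points), with the mean and SD of each group (bars). Cpt1a, Acadm, Ehhadh, Acaa1b, Acot2 and Vnn1 show no overlap between the diets within a genotype, and Fabp1 overlaps; Acot2 of Klrk1-/- mice on SSD lies between 241 and 283, and that of WT mice between 272 and 542.

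Since the genes rose together, their promoters were read for the motif that PPAR-alpha and RXR bind, a direct repeat of AGGNCA with 1 base between, and for its building block AGGTCA, on both strands. RefSeq promoter windows of 300 bases (250 before to 50 after a start, table built on GRCm38.p6) matched 32 of the 39 genes. AGGTCA was found in 8 of the 32 (Acadm, Acadvl, Acot3, Acot4, Cpt1a, Creb3l3, Echs1 and Fabp1), and in 24.3% of their 37 windows, against 16.3% of all 32851 windows. The repeat was found in 1 gene, Fabp1, against 0.381% of all windows. Of the 22 genes higher in both genotypes, 18 had a window and 4 of them held AGGTCA. Those 4 are shown with Fabp1, the gene with the repeat that did not pass. Each window is written 5′ to 3′ on the strand of its gene, and capitals mark AGGTCA or the repeat, which read TGACCT and TGNCCT because all lie on the opposite strand. The positions are exact matches on GRCm39, chr3:153650231-153650530 for Acadm (minus strand), chr12:84098668-84098967 for Acot3, chr12:84084903-84085202 for Acot4, chr19:3373051-3373350 for Cpt1a and chr6:71176613-71176912 for Fabp1 (plus strand).
Acadm: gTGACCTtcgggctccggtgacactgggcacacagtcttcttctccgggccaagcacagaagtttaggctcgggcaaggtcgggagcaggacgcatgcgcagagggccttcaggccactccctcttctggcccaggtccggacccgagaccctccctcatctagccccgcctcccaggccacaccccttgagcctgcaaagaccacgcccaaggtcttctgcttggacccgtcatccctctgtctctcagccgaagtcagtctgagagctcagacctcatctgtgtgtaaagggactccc
Acot3: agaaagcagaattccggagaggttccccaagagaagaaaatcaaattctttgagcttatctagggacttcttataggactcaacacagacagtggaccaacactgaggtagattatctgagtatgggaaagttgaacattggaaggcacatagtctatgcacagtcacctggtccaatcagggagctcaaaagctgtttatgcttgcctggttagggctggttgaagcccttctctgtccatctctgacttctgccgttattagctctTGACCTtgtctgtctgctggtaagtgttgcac
Acot4: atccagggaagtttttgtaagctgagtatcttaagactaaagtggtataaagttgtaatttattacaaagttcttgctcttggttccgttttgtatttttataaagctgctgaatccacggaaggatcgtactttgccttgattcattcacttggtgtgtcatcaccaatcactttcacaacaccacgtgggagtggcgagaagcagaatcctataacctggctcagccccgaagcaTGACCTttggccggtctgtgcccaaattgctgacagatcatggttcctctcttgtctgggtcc
Cpt1a: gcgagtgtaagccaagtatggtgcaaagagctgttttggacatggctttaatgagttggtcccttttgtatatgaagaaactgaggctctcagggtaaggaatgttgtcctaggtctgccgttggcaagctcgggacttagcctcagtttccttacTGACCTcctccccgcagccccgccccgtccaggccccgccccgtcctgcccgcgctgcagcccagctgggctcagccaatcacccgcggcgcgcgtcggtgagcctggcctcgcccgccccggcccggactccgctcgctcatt
Fabp1: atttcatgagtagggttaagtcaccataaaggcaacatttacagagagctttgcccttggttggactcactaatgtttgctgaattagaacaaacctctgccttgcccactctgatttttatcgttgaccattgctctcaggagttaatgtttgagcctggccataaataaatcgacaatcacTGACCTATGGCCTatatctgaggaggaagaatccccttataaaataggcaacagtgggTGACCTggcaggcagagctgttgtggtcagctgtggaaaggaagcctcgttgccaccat
The motif starts 249 bases before the start in Acadm, 94 before it in Cpt1a and 13 before it in Acot4, and 18 after it in Acot3. In Fabp1 the repeat begins 67 bases before the start, and a further AGGTCA lies 9 bases before it. These are letters in a window and not binding sites, and the windows leave out enhancers and introns.

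The module was then compared between the genotypes within a diet, to see whether loss of NKG2D moved fat oxidation. On SSD, 0 of the 39 genes passed limma's test in either direction, where 1.22% of all genes were higher and 1.68% were lower in Klrk1-/- mice. At an unadjusted p under 0.05 there were 6, and the share of all genes at that cut-off was not computed. With edgeR 0 passed, where 1.07% of all genes were higher and 1.3% lower. DESeq2 called 2, Acot2 and Pdk4, both lower, near its share of 5.22% of all genes lower. The median log2 fold change was 0.09 for the module, 0.02 for the mitochondrial and 0.12 for the peroxisomal genes, small beside the rise on SSD. Ppara was 0.16 ± 0.13 (adjusted p = 0.48, 95% interval -0.12 to 0.44), and Creb3l3 was 0.09 ± 0.10 (adjusted p = 0.64, turning to -0.03 with equal totals). The interval of Cpt1a ran from -0.31 to 0.14 and that of Acadm from -0.41 to 0.07. The largest differences were -0.59 ± 0.19 for Acot2, -0.59 ± 0.19 for Pdk4, and -0.51 ± 0.20 for Vnn1, with adjusted p of 0.11, 0.11 and 0.17. Without WT mouse 1 on SSD, Vnn1 alone passed as lower, where 3.26% of all genes were. This mouse held the highest macrophage marker sum, and the other 4 WT mice on SSD reached 4606 at the lowest against 3783 to 4541 in Klrk1-/- mice, with 1 of 7 macrophage markers lower in Klrk1-/- mice. The hepatocyte markers summed to 1457929 to 1905958 in WT and 2015397 to 2174915 in Klrk1-/- mice on SSD, without overlap. The part of these cells in the differences was not tested.

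On NCD, 1 gene was higher and 1 was lower in Klrk1-/- mice, where 6.41% of all genes were higher and 6.66% lower. Acot2 was the higher gene, with every Klrk1-/- mouse (57.2 to 103) above every WT mouse (23.5 to 47.3) and a log2 fold change of 1.03 ± 0.24 (limma adjusted p = 0.018). Echs1 (chromosome 7, 139685623 to 139696389) was the lower gene, with 5838, 5162, 4304 and 3740 normalized counts in WT mice and 3473, 3278, 2808 and 3684 in Klrk1-/- mice (-0.51 ± 0.13, adjusted p = 0.028). The groups of Echs1 came close, at 3740 and 3684. Without Klrk1-/- mouse 3 neither gene passed (limma adjusted p = 0.059 and 0.083). Echs1 also lost its call without WT mouse 1, WT mouse 2 or Klrk1-/- mouse 2, and Acot2 with the replicate block. When WT mouse 5 was left out, 9 genes passed, 7 of them lower, where 8.31% of all genes were higher and 8.75% lower. The mitochondrial genes leaned to lower values in Klrk1-/- mice, with a median of -0.14 and 3 of 15 above 0. The median of all genes was 0.0018. Echs1 was the only mitochondrial gene past the threshold. At an unadjusted p under 0.05 there were 7 of them, with no share of all genes computed at that cut-off. On this diet 1 of 4 bile duct markers was lower (summing to 956 to 2725 normalized counts in WT and 730.0 to 1080.1 in Klrk1-/- mice), and 1 of 5 endothelial and 1 of 4 B cell markers were higher, and their part was not tested. The median of the peroxisomal genes was -0.17. Ppara was 0.35 ± 0.18 (adjusted p = 0.20, and 0.53 with adjusted p = 0.049 without WT mouse 2), and Creb3l3 was -0.12 ± 0.09 (adjusted p = 0.36).

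**Figure D4:**
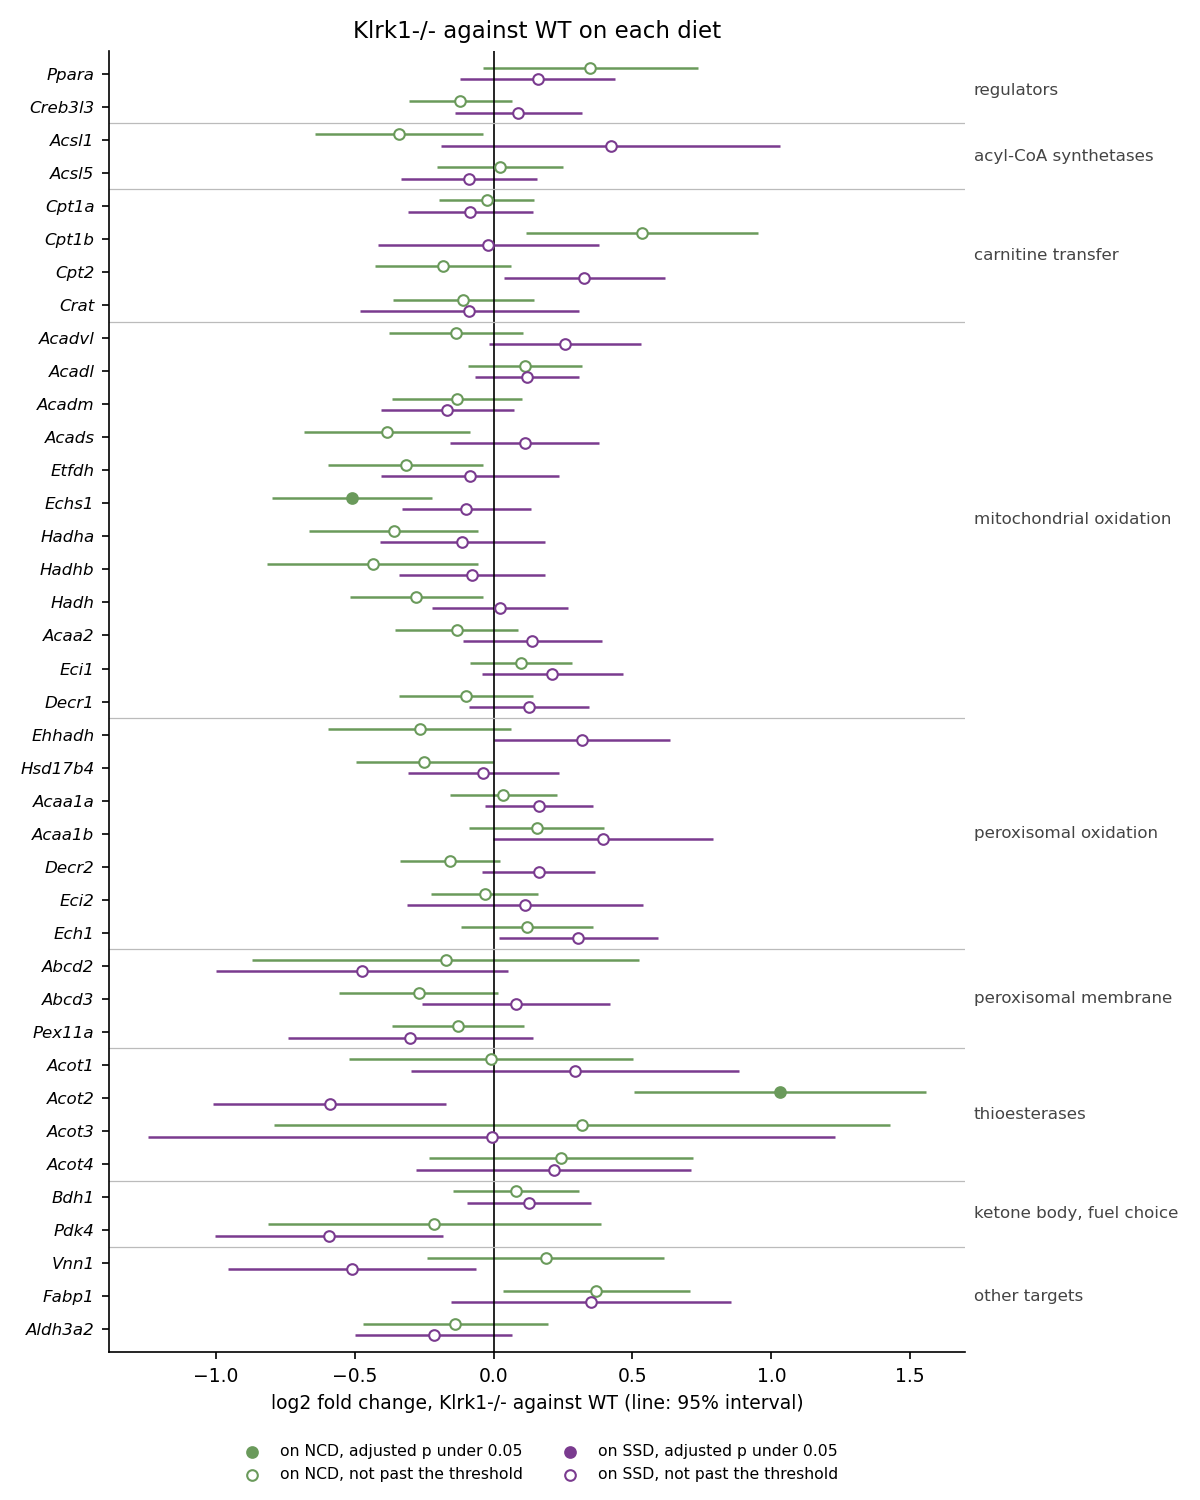
Log2 fold change of each gene of the module for Klrk1-/- against WT (x axis), with its 95% interval, on NCD (green) and on SSD (purple). Filled circles passed an adjusted p under 0.05, which holds only for Acot2 (1.03) and Echs1 (-0.51) on NCD.

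Finally, the diet response was compared between the genotypes in 1 model of all 16 mice. Acot2 was the only gene of the module with a smaller response in Klrk1-/- mice past the threshold, and none had a larger one, where 0.559% and 0.321% of all genes passed in these directions. Its interaction was -1.62 ± 0.32 (limma adjusted p = 0.024), the difference between log2 fold changes of 1.87 and 3.49. edgeR and DESeq2 called Acot2 too, where 0.413% and 2.1% of all genes passed with a negative interaction. Leaving out any of the 3 Klrk1-/- mice on SSD gave adjusted p of 0.050 to 0.077 (limma). At an unadjusted p under 0.05 there were 9 genes of the module, and the share of all genes at that cut-off was not computed. Ppara was -0.19 ± 0.24 (adjusted p = 0.71) and Creb3l3 0.21 ± 0.13 (adjusted p = 0.42). The per-base ratio of Acot1 to Acot2 went in WT mice from 7.45 ± 1.38 on NCD to 3.08 ± 1.28 on SSD, without overlap, and stood at 3.68 ± 1.27 and 5.17 ± 0.96 in Klrk1-/- mice. The log2 fold changes of the diet in WT and in Klrk1-/- mice, which share no mice, had a Pearson's r of 0.92 across the 39 genes. It was 0.71 for the 15 mitochondrial and 0.92 for the 8 peroxisomal genes. These values are a description, since genes are not independent. The tests of the single genes gave the interaction results above. The log2 fold change of the diet was higher in Klrk1-/- mice for 25 of the 39 genes and 12 of the 15 mitochondrial genes. The share of all genes was not computed. The median interaction was 0.0004 for all genes, 0.14 for the module and 0.25 for the mitochondrial genes. These counts include genes that did not rise, such as Echs1 (-0.40 in WT and 0.02 in Klrk1-/- mice). They also depend on the scaling. With quantile normalization Acaa1b (1.62 in WT and 1.56 in Klrk1-/- mice) and Bdh1 (1.11 and 1.04) were no longer higher in Klrk1-/- mice. Of the 25, 9 passed the diet test in Klrk1-/- mice alone (Acsl1, Cpt2, Acadvl, Acads, Hadha, Hadh, Eci1, Hsd17b4 and Decr2) and none of these 9 passed the interaction. With equal totals all of them but Acsl1 passed in WT mice too.

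Other genes of the pathway were read from 3 lists written from general knowledge. Of 22 further PPAR-alpha targets, 21 were tested, and 17 were higher and 1 lower on SSD in WT mice, and 16 higher and 2 lower in Klrk1-/- mice (medians 1.28 and 0.85). Of all genes 17.3% were higher and 17.6% lower in WT mice, and 13.4% and 16% in Klrk1-/- mice. The smallest adjusted p in WT mice belonged to Fgf21, a fasting hormone of the liver (7.38), the lipid droplet gene Cidec (5.49) and Plin4 (3.24). In Klrk1-/- mice it belonged to Retsat (1.90), Plin4 (2.72) and Cyp4a14 (5.35). Klrk1-/- mice on SSD held less Cidec (928 ± 371 normalized counts in WT and 199.7 ± 29.96 in Klrk1-/- mice, log2 fold change -2.12 ± 0.29, limma adjusted p = 0.0083), and the interaction passed for Cidec (-2.45, adjusted p = 0.048) and Lpin1 (-1.93, adjusted p = 0.016). On NCD 4 of this list were higher and 1 lower in Klrk1-/- mice, where 6.41% and 6.66% of all genes were. On NCD the other lists gave 0 higher and 5 lower of 30, and 3 higher and 1 lower of 16. Of 30 other oxidation and ketone body genes, 8 were higher and 10 lower in WT mice on SSD, and 12 higher and 8 lower in Klrk1-/- mice, and Acacb, whose product makes the malonyl-CoA that blocks Cpt1, fell by 2.97 and 3.52 on the log2 scale. Ivd of leucine breakdown fell in both (-0.93 and -0.52) and was higher in Klrk1-/- mice on SSD (0.57, adjusted p = 0.011). Of this list Slc16a1, a carrier of lactate and ketone bodies, was lower in Klrk1-/- mice on both diets (-0.44 on NCD and -0.43 on SSD). Of 16 nuclear receptors and coregulators, 3 were higher and 4 lower in WT mice and 5 and 2 in Klrk1-/- mice, and the WT shares are near those of all genes. Pparg (1.22 and 0.74) and the coregulator Nrip1 (0.41 and 0.97) were higher in both genotypes. Ppard was lower in both (-0.931 in WT and -1.497 in Klrk1-/- mice), with overlapping groups in WT mice. Ppargc1a, a coactivator of PPAR-alpha, was higher in Klrk1-/- mice on NCD (1.28, adjusted p = 0.0012), and none of the 16 passed on SSD. At an unadjusted p under 0.05 there were 4 on SSD, with no share of all genes computed at that cut-off.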

How the data were processed

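Whole-liver RNA was sequenced as 100 bp single reads from 16 mice. The authors aligned reads with STAR to GRCm39 and counted them with FeatureCounts on GENCODE M26. The deposited signal values are normalized counts, that is, reads per gene divided by 1 factor per mouse, and the step that made the factors is not given in the sources used here. Undoing these factors gave whole reads (tolerance 0.1). The deposited feature length was used for values per kilobase. Columns of fold changes and p-values made by the authors with DESeq2 were not used.

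Genes with a mean of at least 10 were tested on log2(normalized count + 1) with limma 3.58.1 (trend), in R 4.3.3, with only the compared groups in the model, Benjamini-Hochberg adjustment over all genes tested and a threshold of 0.05. The script was tested on simulated data with 200 changed genes. The members of the module and the gene lists were chosen with earlier results of these data known. Every mouse's value is given for the 6 members with the smallest adjusted p past the threshold in each comparison, and for Ppara and Creb3l3. Lists are given by counts and by the 3 smallest adjusted p in a comparison.

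The alternatives were pseudocounts of 0.5 and 10, no minimum or a minimum of 50, equal totals, quantile normalization, edgeR 4.0.16 and DESeq2 1.42.0 on the recovered reads, a fold limit of 1.5, a model of all 4 groups, a replicate block, wider organelle classes and leaving out each mouse. The mice are separate animals by their labels. The p-values set a group difference against the spread between these mice, which limma estimates partly from other genes.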

Additional observations from a re-analysis of the deposited data

Results flagged for a closer look

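Eci2 had 1 mouse far from the rest of its group. WT mouse 1 on SSD gave 3197 normalized counts, and its gap to the nearest of the other 4 mice was 0.809 of the range of the group. Of 39 such checks (13 genes in 3 groups) this was the only one past Dixon's critical value, and chance passes about 1 group in 20.

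The diet response of Acot2 differed between the genotypes in the model of all 16 mice, with a log2 difference of -1.62 (limma adjusted p = 0.024), since the rise was 3.49 in WT and 1.87 in Klrk1-/- mice.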

How the results depend on the processing

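With equal totals and with quantile normalization the median log2 fold change of the WT diet comparison became 0.67 and 0.66 for the mitochondrial and 0.91 and 0.82 for the peroxisomal genes. Equal totals gave 0.84 for both classes in Klrk1-/- mice, and wider organelle classes gave peroxisomal medians of 1.03 in WT and 1.18 in Klrk1-/- mice and a rise of the difference between organelles of 0.48 and 0.51. Creb3l3 changed sign, to 0.27 and 0.23 for the diet in WT mice and to -0.025 and -0.00028 for genotype on SSD. DESeq2 called 2 genes for genotype on SSD, where 4.08% of all genes were higher and 5.22% lower. It called 5 on NCD, where 8.35% were higher and 9.06% lower. A fold limit of 1.5 left 1 on NCD, and the share of all genes under that limit was not computed. Quantile normalization added Fabp1 there, higher in Klrk1-/- mice (0.50, limma adjusted p = 0.0073), where 7.01% of all genes were higher. The cause of these shifts was not tested.

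Leaving out each mouse gave 24 to 28 genes for the diet in WT mice, 29 to 33 in Klrk1-/- mice, 0 to 1 for genotype on SSD, 0 to 9 on NCD (0 without Klrk1-/- mouse 3, 9 without WT mouse 5) and 0 to 1 for the interaction (0 without any of the Klrk1-/- mice on SSD). Medians of the mitochondrial and peroxisomal genes then ran from 0.27 to 0.43 and 0.47 to 0.66 in WT mice, 0.48 to 0.66 and 0.51 to 0.65 in Klrk1-/- mice, -0.04 to 0.10 and 0.06 to 0.17 for genotype on SSD, and -0.21 to -0.06 and -0.26 to -0.11 on NCD. The rise of the difference between organelles ran from 0.27 to 0.34 in WT and 0.26 to 0.35 in Klrk1-/- mice, in alternatives chosen after seeing the data. Echs1 on NCD lost its call without WT mouse 1, WT mouse 2, Klrk1-/- mouse 2 or Klrk1-/- mouse 3 (limma adjusted p = 0.064 to 0.083).

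The deviations of mice with the same number had correlations of -0.133 to -0.040 for the WT diet groups, -0.017 to 0.132 for the Klrk1-/- diet groups, -0.026 to 0.246 on SSD and -0.101 to 0.085 on NCD. Since no comparison had every pair above 0.1, the numbers were not taken as pairs, and not every mouse correlated best with its own number. With the replicate block 23 genes passed for the diet in WT mice, where 10.9% of all genes were higher and 11.9% lower. In Klrk1-/- mice 32 passed, where 11.4% were higher and 13.5% lower. For genotype 0 passed on SSD and 11 on NCD (10 lower, where 9.67% of all genes were). For the interaction 0 passed, where Acot2 had an adjusted p of 0.104 (limma), and Acot2 on NCD had 0.054. Of 471 settings of the 25 results on single named genes, 453 kept the direction and side of the threshold, 11 lost the call, 3 gained it and 4 reversed. With 3 to 5 mice a group, the precision of each group is limited, and Acot3 at 5.21 to 38.3 normalized counts on NCD rests on few reads.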
